A study of Mus musculus with 49 samples.

Results

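Among 49 single cells of the mouse somatosensory cortex, 9 held RNA of microglia, the resident macrophages of the brain, beside RNA of neurons. These were set against 32 cells in which 5 microglial genes stayed low. A cell was placed in the first group where at least 2 of the 5 microglial genes C1qa, C1qb, C1qc, Csf1r and P2ry12 reached 10 RPM (reads of a gene scaled to a common total in each cell), and in the second where all 5 stayed under 10 RPM. The remaining 8 cells, with exactly 1 of the 5 genes at 10 RPM or more, belonged to neither group. The 32 are called cells without microglial RNA by these 5 genes alone, and some of them held RNA of other microglial genes. The 9 cells were 18.4% of the 49 (exact Clopper-Pearson 95% interval 8.76 to 32, counting error only).

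All 49 cells came from wild-type (WT) mice of the CD1 strain. Cells dividing at the ventricle had been pulse-labelled with the fluorescent dye FlashTag at E13.5 (E, embryonic day), and brightly labelled cells were patched in slices at postnatal day 7 (P7), where the content of each was drawn into the pipette (Patchseq). There was 1 condition, the source of every sample was labelled as neurons, and the cells were multiplexed in 5 library pools that, by the study's methods, each mixed collection days. The labels tie no cell to an animal, so the cells were treated as 1 sample, the groups were described, and no test between them was made.

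Microglia survey the cortex with motile processes, clear dying cells and synapses, and depend on the receptor encoded by Csf1r for survival. C1qa, C1qb and C1qc encode the 3 chains of the complement protein C1q, which tags synapses and debris for removal, and P2ry12 encodes a purine receptor that guides microglial processes towards ATP.

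The total that the RPM values refer to was 424976 to 12419177 reads in the 9 cells (median 1119611) and 225363 to 35342325 in the 32 cells without microglial RNA (median 1405074.5), so depth overlapped. Genes detected by at least 1 read numbered 6015 at the median against 6707, and mitochondrially encoded genes took 1.32% of reads at the median (0.249% to 9.81%) against 1.11% (0.0972% to 6.36%). Library pool 1 held none of the 9 cells, pool 2 held 2, pool 3 held 3, pool 4 held 1 and pool 5 held 3. The cells without microglial RNA were 9, 7, 6, 7 and 3 in the same order, and the cells in between 3, 0, 0, 1 and 4. Pool 1 was also the deepest, with a median of 9870201 reads. For its 9 cells without microglial RNA the pool and the group cannot be told apart. Pool 1 was not free of the 5 genes. Among its cells in between, IL03_Pool1 had 81.1 RPM of C1qb and IL08_Pool1 had 46.8 RPM of P2ry12. The comparisons within pools used the 4 pools other than pool 1.

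The cells were chosen by the RPM of these 5 genes, so their values are given as a description. C1qc was the gene shared by all of the 9 cells, at 11.8, 297 and 1093 RPM in the lowest, the median and the highest cell. C1qb lay at 2.72, 255 and 2012 RPM, and 8 of the 9 cells reached the limit. The other 3 were missing from part of the group. P2ry12 ranged from 0 to 724 RPM (median 146, 6 of 9 cells at the limit), Csf1r from 0 to 420 RPM (median 70.5, 6 of 9) and C1qa from 0 to 127 RPM (median 26, 5 of 9). The sum of the 5 ran from 49.4 to 3934 RPM with a median of 985, against 0 to 24.2 RPM with a median of 2.73 in the cells without.

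**Figure D1:**
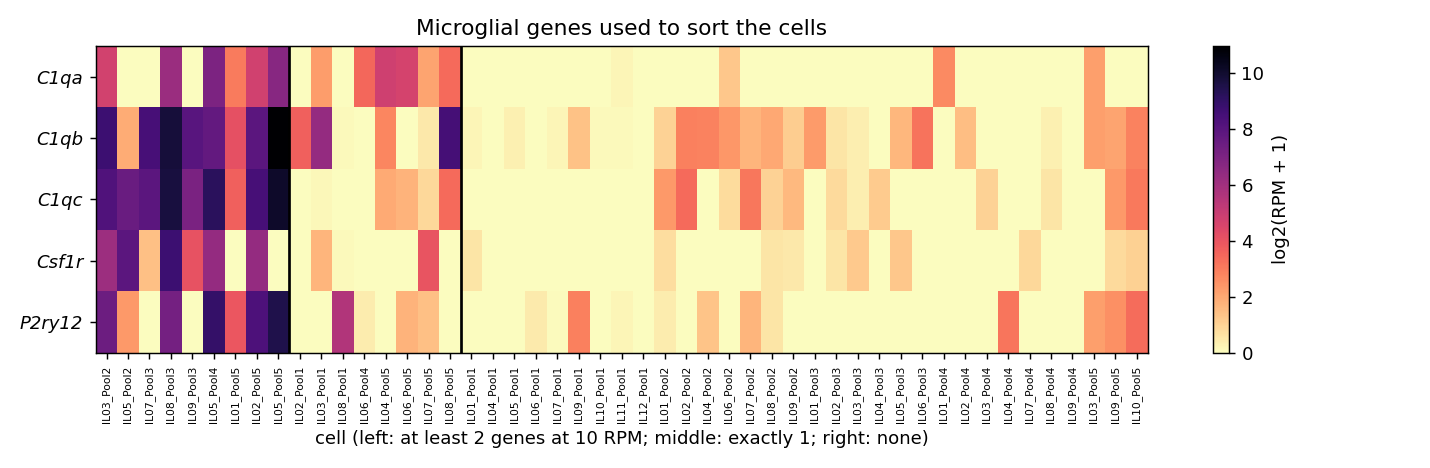
Level of the 5 genes used to sort the cells, as log2(RPM + 1) in colour, with 1 column per cell named by its label and library pool. Black lines part the 9 cells with at least 2 genes at 10 RPM, the 8 cells with exactly 1 and the 32 with none. C1qc is dark in 8 of the 9 cells on the left and pale in IL01_Pool5, where it was 11.8 RPM.

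The chains of C1q did not keep 1 ratio from cell to cell. C1qb was between 1.05 and 1.92 times C1qc in 6 of the 9 cells, 0.669 times in IL02_Pool5, 0.352 times in IL05_Pool4 and 0.0149 times in IL05_Pool2. That last cell had 183 RPM of C1qc and 238 RPM of Csf1r but only 2 reads of C1qb. C1qa was at 0 in 3 cells. The 3 genes lie next to each other on the minus strand of chromosome 4 (C1qb at 136880129 to 136886187, C1qc at 136889804 to 136893065 and C1qa at 136895917 to 136898803, GRCm38, GENCODE M21).

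Membership of 1 cell was marginal. IL01_Pool5 passed on 7 reads of C1qb (16.5 RPM), 6 of P2ry12 (14.1 RPM) and 5 of C1qc (11.8 RPM), and it had no read of Csf1r. It held 3.10% of all reads of its pool but between 0.126% and 0.365% of the pool's reads of C1qb, C1qc, P2ry12, Il1a, Ccl4, Tyrobp and Fcer1g, and 1.29% of those of C1qa (3 reads). For C1qc (0.244%), P2ry12 (0.365%), Il1a (0.204%), Ccl4 (0.339%) and Tyrobp (0.311%) its share lay within the range of the 3 cells of pool 5 without microglial RNA, for C1qb (0.286%) it was above their highest (0.245%) and for Fcer1g (0.126%) below their lowest (0.293%). Reads that pass between cells of a pool were not measured here, and their part in this cell's values was not tested. Just outside the limit, IL08_Pool5 had 362 RPM of C1qb but 9.53 RPM of C1qa as its next gene, IL02_Pool2 had 9.49 RPM of C1qc as its highest and IL10_Pool5 had 9.45 RPM of P2ry12 as its highest.

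Low traces of the 5 genes differed between pools. In the cells without microglial RNA the median of their sum ran from 0.266 RPM (pool 1) and 1.03 RPM (pool 4) through 2.73 RPM (pool 3) and 6.38 RPM (pool 2) to 12.9 RPM (pool 5). The 9 cells held nearly the whole of the C1qb reads of their pools, from 96.2% in pool 5 to 99.5% in pool 3. The traces were lowest in the pool with none of the 9 cells and highest in the pool with the cell of the highest sum, while pools 2 to 4 did not follow the number of such cells. Whether this came from the tissue or from the shared library was not tested.

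Short promoter sequences are shown for the genes, among the 5 that chose the cells and the 15 that differed most from the cells without, that held a core of the site of PU.1, the transcription factor encoded by Spi1 that specifies macrophages, or a site of NF-kappaB, the factor that drives inflammatory genes. RefSeq promoters (GRCm38.p6) of 300 bases ran from 250 before to 50 after the start of the gene. They were used for 3 of the 5 genes and 10 of the 15. Promoters of the other genes in these sets were left out, so the counts do not cover them. AGGAAGT, searched on both strands, was in all 3 promoters used for the genes that chose the cells. It was in 2 of the 10 for the genes that differed most and in 9.35% of 32851 promoters. GGGNN followed directly by TTTCC, also on both strands, was in 1 of the 10, with 2 matches, and in 1.63% of all promoters. Capitals mark AGGAAGT, or ACTTCCT where it lies on the other strand, in the first 5 sequences and the NF-kappaB letters in the last, each read 5′ to 3′ on the strand of its gene.
C1qb (chr4:136886151-136886450, minus strand): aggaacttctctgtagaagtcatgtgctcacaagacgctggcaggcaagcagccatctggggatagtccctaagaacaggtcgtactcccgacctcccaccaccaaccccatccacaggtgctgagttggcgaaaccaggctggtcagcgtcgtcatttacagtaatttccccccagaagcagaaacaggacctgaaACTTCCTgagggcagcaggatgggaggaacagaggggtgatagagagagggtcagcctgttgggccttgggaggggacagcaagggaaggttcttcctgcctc
C1qc (chr4:136892865-136893164, minus strand): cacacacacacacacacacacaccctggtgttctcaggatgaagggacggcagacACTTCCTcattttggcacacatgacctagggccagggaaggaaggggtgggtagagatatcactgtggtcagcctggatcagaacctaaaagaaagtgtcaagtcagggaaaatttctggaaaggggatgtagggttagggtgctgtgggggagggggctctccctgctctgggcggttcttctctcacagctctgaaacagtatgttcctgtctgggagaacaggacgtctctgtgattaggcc
P2ry12 (chr3:59262936-59263235, minus strand): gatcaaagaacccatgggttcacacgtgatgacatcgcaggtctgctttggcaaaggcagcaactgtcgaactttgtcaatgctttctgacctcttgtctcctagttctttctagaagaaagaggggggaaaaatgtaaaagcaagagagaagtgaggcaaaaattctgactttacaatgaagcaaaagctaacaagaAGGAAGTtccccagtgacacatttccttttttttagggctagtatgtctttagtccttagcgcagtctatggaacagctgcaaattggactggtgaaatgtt
Hpgds (chr6:65144681-65144980, minus strand): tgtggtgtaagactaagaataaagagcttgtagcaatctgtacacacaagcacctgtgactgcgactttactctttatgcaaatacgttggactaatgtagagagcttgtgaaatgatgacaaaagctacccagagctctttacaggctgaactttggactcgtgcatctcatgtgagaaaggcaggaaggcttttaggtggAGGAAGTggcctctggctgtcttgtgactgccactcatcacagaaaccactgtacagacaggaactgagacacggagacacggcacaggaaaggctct
Ltc4s (chr11:50238483-50238782, minus strand): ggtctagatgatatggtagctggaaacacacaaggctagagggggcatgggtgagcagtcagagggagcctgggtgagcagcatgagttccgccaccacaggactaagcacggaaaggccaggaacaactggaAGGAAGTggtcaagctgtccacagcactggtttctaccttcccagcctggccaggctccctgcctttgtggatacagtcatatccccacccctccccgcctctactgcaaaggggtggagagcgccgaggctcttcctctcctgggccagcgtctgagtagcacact
Cxcl2 (chr5:90903649-90903948, plus strand): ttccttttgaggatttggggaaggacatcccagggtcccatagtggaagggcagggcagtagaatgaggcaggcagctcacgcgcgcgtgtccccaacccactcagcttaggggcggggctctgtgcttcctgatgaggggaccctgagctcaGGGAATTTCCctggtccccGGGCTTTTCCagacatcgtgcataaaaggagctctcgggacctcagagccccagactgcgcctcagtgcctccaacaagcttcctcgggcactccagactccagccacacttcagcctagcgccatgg
The matches are letters in a window, and binding was not measured.

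Across 8975 genes, the 5 genes of the rule left out, 1642 (18.3%) were at least 1 log2 unit higher and 1201 (13.4%) at least 1 unit lower in the mean of log2(RPM + 1) of the 9 cells than of the 32, with a median difference of 0.05. With only 9 cells many genes pass such a step, so the lists are read against these shares. Of 90 immune genes, 72 were at least 1 unit higher and 1 was lower, with a median of 2.80. Of 71 neuronal genes, 7 were higher and 10 lower, with a median of -0.34. Part of the immune count is built into the table: a listed gene reaches 100 RPM in at least 2 cells, and 36 of the 90 did so only through the 9 cells and so had to differ. Of the 45 that reached it in at least 2 cells without microglial RNA, 30 were higher, with a median of 1.97, where 15.1% of the 7805 genes of that kind were.

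**Figure D2:**
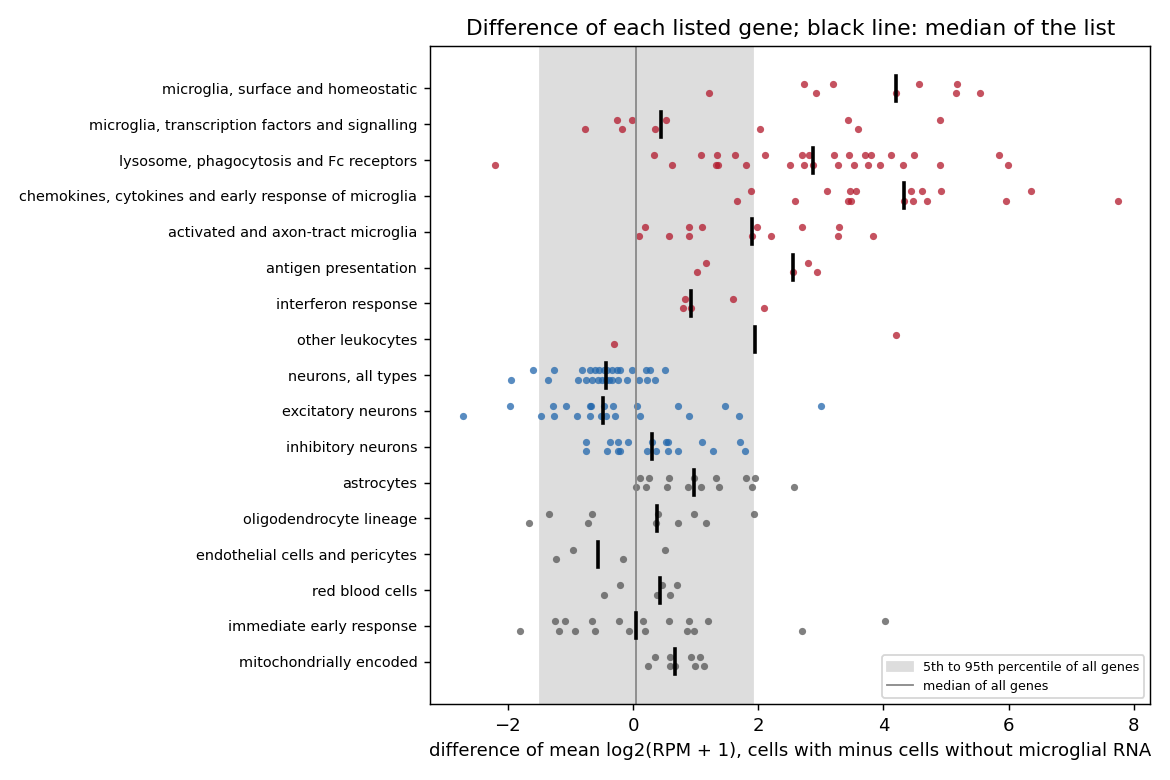
Difference of mean log2(RPM + 1), the 9 cells with minus the 32 cells without microglial RNA, for each gene of each list (1 point per gene, red immune, blue neuronal, grey other), with the list's median as a black line and the 5th to 95th percentile of all 8975 genes in grey (-1.49 to 1.91). The medians of the chemokine list (4.32) and the homeostatic list (4.21) lie to the right of the band and those of the 3 neuronal lists (-0.43, -0.48 and 0.31) inside it. For 12 of the 17 chemokine genes and 6 of the 9 homeostatic genes, 100 RPM in 2 cells was reached only through the 9 cells. The place of these 2 medians is thus partly built into the table.

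Il1a, which encodes interleukin 1 alpha, an alarm cytokine that microglia release early in injury, was the gene furthest apart. Its level was 25.9, 595 and 5155 RPM in the lowest, the median and the highest of the 9 cells and 0, 0.817 and 16.9 RPM in the 32. The ranges did not overlap, and Il1a was the only 1 of the 8975 genes for which this was so, with or without IL01_Pool5. Il1a was in the table only through the group where it is high, with 8 of the 9 cells and 0 of the 32 at 100 RPM, so that part of this separation is built into the table. The difference was 7.74 on the log2 scale and 7.13 within pools, with 7.47, 8.33, 8.81 and 3.93 in pools 2 to 5 in that order. All of the 9 cells reached 10 RPM against 3 of 32, and those 3 were the 3 cells of pool 5, at 13.7 to 16.9 RPM. No read of Il1a was found in the 12 cells of pool 1. Among the 8 cells in between, IL07_Pool5 had 208 RPM, so a cell with 1 gene of the rule could also hold this cytokine. IL08_Pool5 had 38.1 RPM, from 8 reads. Its share of the pool's Il1a reads (0.148%) was below that of the 3 cells of pool 5 without microglial RNA (0.167% to 0.389%). Il1a lies on chromosome 2 at 129299610 to 129309972 on the minus strand (GRCm38) and overlaps 1 gene annotated on the other strand.

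Chemokines, which call leukocytes to a site of injury, came next, and Ccl4 reached the highest level of any immune gene listed in 1 of the 9 cells. It lay at 54.1, 669 and 21866 RPM against 0, 15 and 291 RPM, a difference of 6.36. Ccl4 was at 10 RPM or more in all of the 9 cells but also in 17 of the 32, so low Ccl4 did not mark the group. Ccl3, its neighbour on chromosome 11, lay at 0.902, 446 and 5068 RPM against 0, 0.0584 and 881 RPM (5.95, 8 of 9 cells against 4 of 32). Ccl2 (4.93), Ccl12 (4.47) and Cxcl2 (4.70), which attract monocytes and neutrophils, differed in the same direction, as did Tnf (4.45, 6 of 9 cells against 0 of 32), the tumour necrosis factor.

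All 17 genes of the list of chemokines, cytokines and early response in the table were at least 1 unit higher, but 12 of the 17 reached 100 RPM in at least 2 cells only through the 9 cells. Il1rn (1.66) was at 0.90 without IL01_Pool5 and at 0.85 without IL08_Pool3. The list included 2 near-identical Bcl2a1 copies, Bcl2a1a and Bcl2a1b, between which reads cannot be told apart with certainty. Each of the 9 cells had 7 to 17 of these genes at 10 RPM or more and each of the 32 had 0 to 6, while the cells in between had 1 to 10. The sum of the list was 407 to 36471 RPM (median 3800) against 2.96 to 1731 RPM (median 133), and the groups overlapped on this measure. IL05_Pool2 and IL08_Pool3 were the highest, at 36471 and 28237 RPM, and IL01_Pool5 was the lowest.

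**Figure D3:**
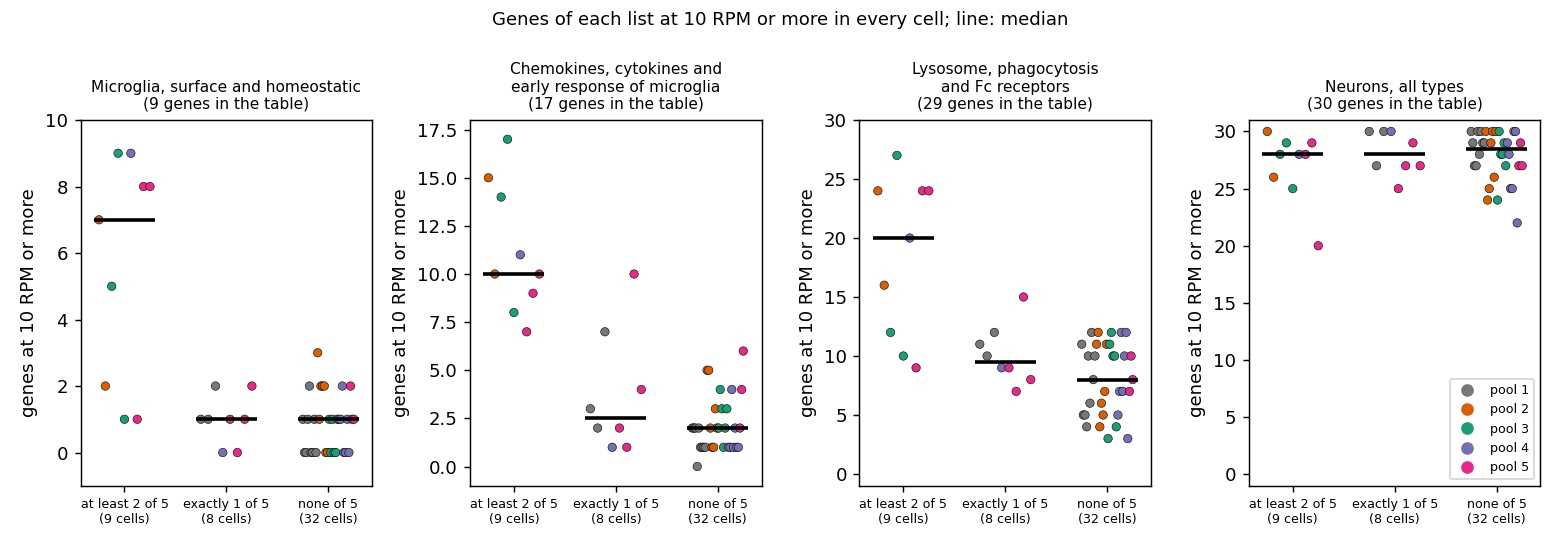
Number of genes of 4 lists at 10 RPM or more in every cell, by group, with 1 point per cell coloured by library pool and the median as a line. For chemokines and cytokines the 9 cells (7 to 17 genes) lie above the 32 cells (0 to 6), for the lysosomal list the groups overlap (9 to 27 against 3 to 12, with 3 of the 9 cells inside the range of the 32), and for neuronal genes they share a range (20 to 30 against 22 to 30).

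Genes of resting microglia were higher but were not found in every cell of the group. Tyrobp, the adaptor that passes on signals of TREM2 and other receptors, lay at 0, 505 and 3389 RPM against 0, 1.34 and 326 RPM, a difference of 5.55. It reached 10 RPM in 7 of 9 cells and 4 of 32, and IL09_Pool3 had none of it. Siglech (5.15), Trem2 (4.21), Fcrls (4.57), Gpr34 (3.19) and Tmem119 (2.73), all surface proteins of microglia, reached 10 RPM in 4 to 6 of the 9 cells and in 0 to 2 of the 32. Spi1 (4.91), which encodes PU.1, reached it in 6 of 9 cells and 1 of 32, and Irf8 (2.02), its partner in microglia, in 2 of 9 and 0 of 32. Irf8 was at 1.32 without IL05_Pool4 and at 1.33 without IL05_Pool5.

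All 9 homeostatic genes in the table other than those of the rule were at least 1 unit higher, of 26 listed, and 6 of the 9 passed 100 RPM only through the 9 cells. The other 17, Cx3cr1 among them, were not analysed here. Golm1 (1.22) was at 0.66 to 0.68 without IL05_Pool4, IL07_Pool3 or IL08_Pool3. IL08_Pool3 and IL05_Pool4 had all 9 at 10 RPM or more, whereas IL09_Pool3 and IL01_Pool5 had 1 each and IL05_Pool2 had 2. Of the 10 transcription and signalling genes, 4 were higher (Spi1, Irf8, Rac2 and Arhgdib), none was lower and the median was 0.44. Only through the 9 cells did 3 of the 10 reach 100 RPM in 2 cells, so part of this count is built into the table. Of the 7 that did so in at least 2 cells without microglial RNA, 1 was higher, and the median of the 7 was -0.02. Maf (0.53), shared by macrophages and interneurons, did not reach that step.

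Of 29 genes of phagocytosis and the lysosome in the table, 26 were at least 1 unit higher. Only through the 9 cells did 12 of the 29 reach 100 RPM in 2 cells, and of the 14 that did so in at least 2 of the 32, 11 were higher. Among those that fell under 1 unit with 1 cell left out, Ptprc (1.09) was at 0.23 without IL01_Pool5. Ctsc (1.36) was at 0.53 without IL05_Pool5. Aif1, which encodes the microglial protein IBA1, lay at 6.32, 460 and 2961 RPM against 0, 0.75 and 728 RPM (6.0). Fcer1g, the signalling chain of Fc receptors, lay at 3.16, 392 and 2673 RPM against 0, 1.23 and 161 RPM (5.85). Both overlapped between the groups, since Aif1 reached 10 RPM in 9 of the 32 cells and Fcer1g in 3. The protease gene Ctss (3.94), the phagosome gene Cd68 (3.54) and the Fc receptor genes Fcgr1 (3.45) and Fcgr3 (3.70) reached 10 RPM in 5 of the 9 cells each and in 0 of the 32. Some lysosomal genes that many of the 32 cells held too differed less, with Ctsb at 703 RPM against 358 RPM at the median (1.33) and Lamp1 at 1.32. Others did not, as Ctsd (24 of 32 cells at 10 RPM or more) differed by 2.51 and Lgmn (15 of 32) by 2.87. The median of the list was 2.87. Lamp2 was the 1 immune-list gene at least 1 unit lower (-2.20, 2 of 9 cells against 18 of 32).

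Other states of myeloid cells and other leukocytes were checked by their own lists. Of the 13 measured genes of activated and axon-tract microglia, 8 were higher (median 1.89), and Igf1 (0.20), Lpl (0.57) and Fabp5 (0.09), which neurons or other glia also express, were not. Among the 12 of them that reached 100 RPM in at least 2 of the 32 cells, 7 were higher. All 5 genes of antigen presentation in the table were higher, led by H2-D1 (2.94) and Psmb9 (2.80), and B2m (2.55) lay at 185 RPM against 10.5 RPM at the median. Of these 5, 3 reached 100 RPM in at least 2 of the 32 cells and all 3 were higher, while 1 reached it in 2 cells only through the 9. H2-K1 (1.17) was at 0.57 to 0.90 without IL02_Pool5, IL05_Pool2, IL05_Pool4 or IL08_Pool3. H2-M3 (1.02) was at 0.65 without IL03_Pool2 and at 0.16 without IL05_Pool2. Of 5 interferon genes 2 were higher, Ifitm3 (2.08) and Isg15 (1.59, or 0.86 without IL08_Pool3). None of the 13 genes of border macrophages, such as Mrc1, was in the table, and they were not analysed here. Of 22 genes of other leukocytes 2 were in it: Ighm, an immunoglobulin heavy chain of B cells, was at 10 RPM or more in 5 of 9 cells and 1 of 32 (4.21), and S100a9 of neutrophils in 0 of 9 and 1 of 32 (-0.30). Ighm reached 100 RPM only through the 9 cells, with 60.4 RPM as the highest of the 32. Part of its difference is thus built into the table.

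By their values alone, the 15 genes with the largest difference that reached 10 RPM in at least 5 of the 9 cells were Il1a, Ccl4, Aif1, Ccl3, Fcer1g, Tyrobp, Ltc4s, Siglech, Hpgds, Ccl2, Spi1, Laptm5, Efhd2, Cd14 and Cxcl2, from 7.74 down to 4.70. Of these 15, 9 reached 100 RPM in fewer than 2 of the 32 cells and 7 in none of them, so that they were in the table mainly for their level in the 9 cells, and the counts over the 15 are a description. Some made lipid mediators or sensed bacteria. Ltc4s (5.18) and Hpgds (4.93) make the lipid mediators leukotriene C4 and prostaglandin D2, Laptm5 (4.90) is a lysosomal membrane protein of blood-derived cells, and Cd14 (4.74) is a receptor for bacterial lipopolysaccharide. The 9 cells had 6 to 15 of the 15 at 10 RPM or more (median 13), the cells in between 0 to 11 (median 4.5) and the cells without 0 to 6 (median 1.5). IL03_Pool2 and IL08_Pool3 had all 15, and IL09_Pool3 and IL01_Pool5 had 6 each. Among the 32, IL02_Pool2 had 5 of the 15, with Ccl3 at 881 RPM and Laptm5 at 427 RPM. Its sum over the 15 genes (1837 RPM) was above those of IL09_Pool3 (1276 RPM) and IL01_Pool5 (242 RPM).

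**Figure D4:**
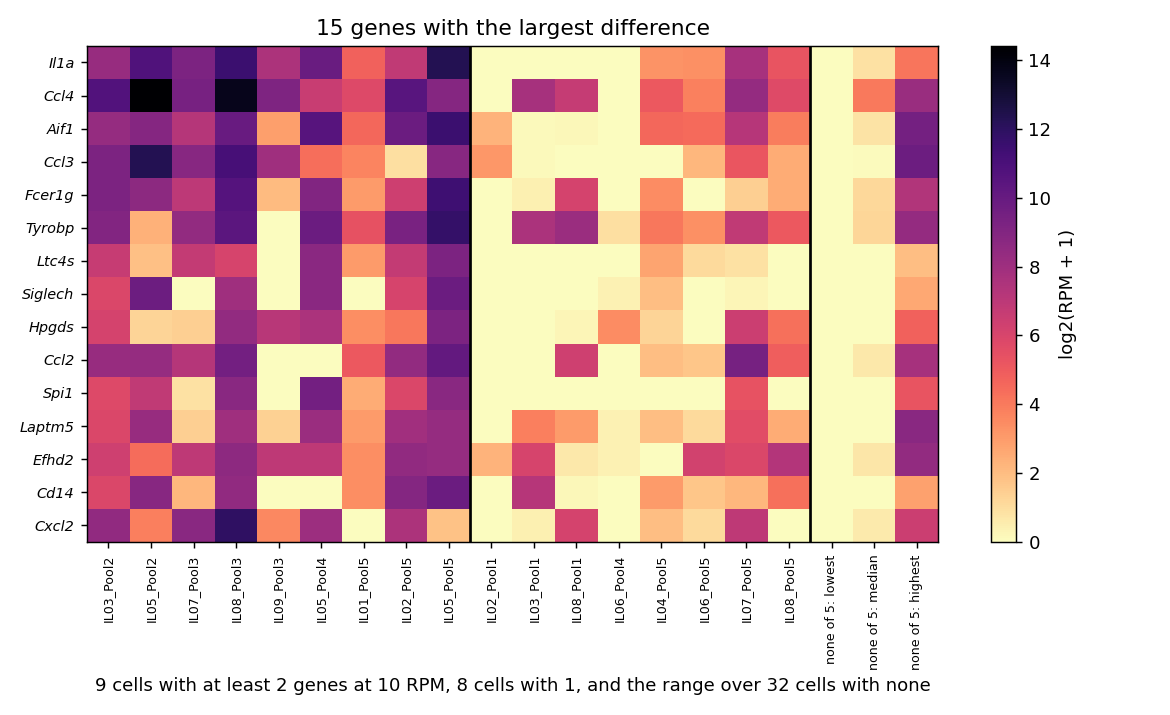
Level, as log2(RPM + 1) in colour, of the 15 genes with the largest difference, in the 9 cells with at least 2 genes of the rule, the 8 cells with exactly 1, and as the lowest, median and highest of the 32 cells with none. Il1a and Ccl4 are above 0 in each of the 9 cells, and IL07_Pool5, among the cells in between, carries 11 of the 15 at 10 RPM or more.

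The 10 genes with the most negative difference, among those at 10 RPM or more in at least 16 of the 32 cells, were in none of the lists. Ptprf, a receptor phosphatase of axons, lay at 0, 0.862 and 72.5 RPM against 0, 76.9 and 1380 RPM (-3.54, 1 of 9 cells against 21 of 32). Ablim1 (-2.86), which binds actin, reached 10 RPM in 3 of 9 cells and 26 of 32, and the kinase gene Csnk1a1 (-2.88) in 5 of 9 and 30 of 32. The others included Slc35a2 (-3.20), Slc30a5 (-3.14), Impdh1 (-3.01), Fbxl2 (-3.0), Ppa2 (-2.92) and Eid2 (-2.81). All 10 ranges overlapped between the groups, as each gene was at 0 in at least 1 of the 32 cells.

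Neuronal RNA was present in each of the 9 cells. Of 30 genes that neurons share, 20 to 30 (median 28) were at 10 RPM or more in each of the 9 cells and 22 to 30 (median 28.5) in the 32. The ranges of their summed level overlapped. The sum of the 30 was 4861, 19593 and 24982 RPM in the lowest, the median and the highest of the 9 cells and 6635, 26572 and 44793 RPM in the 32. The synaptic vesicle gene Snap25 was at 680 RPM against 1111 RPM at the median (-0.56), and Gap43 (-1.26), Celf4 (-1.37), Ina (-1.59) and Nefm (-1.95), of axons, RNA processing and the neurofilament, were the 4 of the 30 at least 1 unit lower. Without IL05_Pool5 alone, Gap43 was at -0.73 and Celf4 at -0.85. None of the 30 was at least 1 unit higher, and their median was -0.43.

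Over the 9 cells, the sum of the 5 microglial genes and that of the 30 neuronal genes ran in opposite order, with a Spearman correlation of -0.93 and a Pearson correlation of -0.74 on the log2 scale. For the sum of the excitatory list the values were weaker, at -0.22 (Spearman) and -0.42 (Pearson). The same microglial sum ran with the homeostatic list (0.97) and the lysosomal list (0.88), less with the cytokine list (0.50), and with the number of reads at 0.55. Over all 49 cells the Spearman correlation was -0.28 with the neuronal sum (Pearson -0.39), 0.59 with the homeostatic list, 0.55 with the lysosomal list and 0.48 with the cytokine list. These are descriptions, the 9 cells were picked by the microglial genes, and RPM are shares of 1 total per cell, so that more of one RNA means less of the others. IL05_Pool5 had both the highest microglial sum (3934 RPM) and the lowest neuronal sum (4861 RPM), which was below that of every cell without microglial RNA. IL09_Pool3 had the highest neuronal sum of the 9 (24982 RPM) at a microglial sum of 403 RPM.

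**Figure D5:**
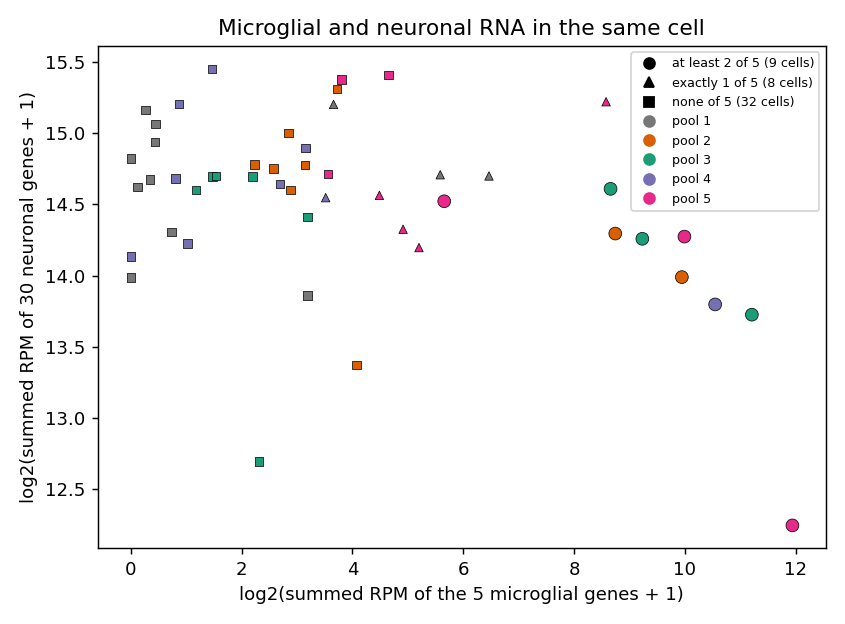
Summed RPM of the 5 microglial genes (x axis) against summed RPM of 30 neuronal genes (y axis), both as log2(RPM + 1), for each of the 49 cells, with the group as the shape and the library pool as the colour. IL05_Pool5, at the lower right, has 3934 RPM of the former and 4861 RPM of the latter, and the other members lie between 13547 and 24982 RPM on the neuronal axis.

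Genes of neuronal types differed gene by gene. Of 22 genes of excitatory neurons 3 were at least 1 unit higher and 6 lower (median -0.48), and of 19 genes of inhibitory neurons 4 were higher and none lower (median 0.31). Neurod6, a transcription factor of excitatory cortical neurons, lay at 0, 12.6 and 104 RPM against 1.5, 137 and 1458 RPM (-2.72, 5 of 9 cells against 25 of 32). Tbr1, a transcription factor of deep-layer neurons, reached 10 RPM in 0 of 9 cells and 11 of 32 (-1.97).

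The largest positive difference among neuronal genes was that of Cux1, a transcription factor of upper-layer neurons that other cells express too. It lay at 2.72, 181 and 719 RPM against 0, 3.57 and 804 RPM (3.0, 7 of 9 cells against 15 of 32). Within pools it was 0.98 (pool 2), 4.8 (pool 3), 7.42 (pool 4, where 1 cell stood for the group) and -1.08 (pool 5), so its direction was not shared by the pools. Camk2a (1.69) and Crym (1.47) were the other higher excitatory genes. Of the inhibitory genes, Vip (1.79) and Npy (1.72) reached 10 RPM in 6 and 7 of the 9 cells against 9 and 12 of the 32. Adarb2 (1.10) and Slc32a1 (1.27) were the other inhibitory genes at least 1 unit higher, and Slc32a1 was at 0.04 within pools. Without IL07_Pool3 alone, Vip was at 0.75, Slc32a1 at 0.76 and Adarb2 at 0.28, and without IL08_Pool3 Crym was at 0.46. Slc32a1 was also under 1 unit without IL02_Pool5 (0.88), as was Adarb2 without IL03_Pool2 (0.81). The inhibitory median turned to -0.12 without IL03_Pool2.

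Other cell types were checked in the same way. Of 15 astrocyte genes 7 were at least 1 unit higher and none lower (median 0.97), led by Aldoc (2.58) and Sox9 (1.95), and the sum of that list was 1431 to 11676 RPM (median 2491) against 307 to 5650 RPM (median 1419). Of the 8 astrocyte genes that reached 100 RPM in at least 2 of the 32 cells, 3 were higher. The astrocyte median was 0.55 without IL03_Pool2, 0.49 without IL05_Pool2 and -0.02 without pool 2, which held both. Of 10 genes of the oligodendrocyte lineage 2 were higher, Olig1 (1.93, or 1.22 without IL03_Pool2) and Lhfpl3 (1.16, or 0.60 to 0.95 without IL01_Pool5, IL02_Pool5, IL03_Pool2 or IL07_Pool3), and 2 lower, among them the myelin gene Mbp (-1.35). Endothelial genes were few in the table, with 0 to 3 of them at 10 RPM or more in the 9 cells and 0 to 5 in the 32, and genes of red blood cells overlapped fully (median difference 0.43, none past 1 unit). The part of astrocyte RNA in the microglial differences was not tested.

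Genes of the immediate early response did not move as 1 group (median 0.05, with 3 of 18 higher and 4 lower). Atf3 (4.03, 6 of 9 cells against 4 of 32), Ier3 (2.70) and Junb (1.19, or 0.76 without IL05_Pool5) were higher. Of the 17 genes that reached 100 RPM in at least 2 of the 32 cells, 2 were higher, and 1 gene reached it in 2 cells only through the 9. Npas4, which neurons switch on with activity, reached 10 RPM in 0 of 9 cells and 8 of 32 (-1.80), and Jun (-1.24), Nr4a2 (-1.18) and Egr4 (-1.09) were also lower. Jun was at -0.90 without IL05_Pool2, IL05_Pool4 or IL05_Pool5, and Egr4 ran from -1.68 without IL02_Pool5 to -0.81 without IL05_Pool4, IL05_Pool5 or IL07_Pool3 and was at -0.88 without IL08_Pool3. Of 9 mitochondrially encoded genes 2 were at least 1 unit higher, with a median of 0.68.

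The genes whose level followed the summed microglial genes most closely over all 49 cells were Il1a (Spearman 0.77), Laptm5 (0.76), Ccl4 (0.73), Tyrobp (0.72), Ly86 (0.61) and Cd14 (0.60), followed by Nat8f1, Ccl7, Hpgds and Ltc4s at 0.58 to 0.59. The 49 points share 5 library pools, and cells with few reads share zeros, and the summed genes are those that set the groups, so the values are descriptions.

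Pool and depth were checked for the lists. The immune median was 2.65, 2.55, 3.09 and 1.98 in pools 2 to 5 in that order, and 2.81 when averaged gene by gene over these pools. The neuronal median was -0.10, 0.35, -0.52 and -1.09 in the same pools, so that the neuronal difference was not of 1 direction. With every cell thinned to 358412 reads, which left out 5 cells, the immune median was 2.98 and the neuronal median -0.33. Without IL01_Pool5, and with no thinning, they were 3.15 and -0.27. These immune medians included the 36 of 90 genes that reached 100 RPM in 2 cells only through cells with microglial RNA. Their sign was thus partly built into the table. The 45 genes that reached it in at least 2 cells without microglial RNA were not checked by pool or depth.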

How the data were processed

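The authors prepared cDNA from single patched cells with a SMART-Seq v4 kit for 3′ ends and made Nextera XT libraries, aligned the single-end reads to GRCm38 (mm10 in the submitters' notes) with STAR and counted them with HTSeq. The annotation and tool versions are not given in the sources used here. The deposited values are RPM for 9020 genes, each at 100 RPM in at least 2 of the 49 cells. The design expected RPM, and every value above 0 was a whole multiple of 1 read (100% within 0.01), so reads were recovered and used for depth, thinning and a filter of 100 reads in 2 cells, which kept 8980 genes. The kit marks no molecules, so intervals cover counting error only. Depth was 209850 to 35342325 reads per cell.

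The groups were set by 5 genes at a limit of 10 RPM, and values were compared as differences of mean log2(RPM + 1), which understate the change of low genes. A step of 1 log2 unit was counted as higher or lower. Differences within pools were taken in the 4 pools with both kinds of cell and averaged. No animal is named, so no test, p-value or standard error was computed, nor a count model on the recovered reads. The members and gene lists were chosen with earlier results of these data known. The genes named are the 5 of the rule, the list members, the 15 highest and 10 lowest differences reaching 10 RPM in at least 5 of the 9 or 16 of the 32 cells where they are higher, and the 10 genes closest by Spearman correlation. IL01_Pool5 was singled out after its values were seen. Coordinates are those of GENCODE M21, and promoters those of RefSeq. Scripts were tested on simulated data. The tools were scipy 1.17.1, pandas 2.3.3, numpy 2.4.6 and matplotlib 3.10.9 under Python 3.11.15. Other limits, pseudocounts, filters, centres, pools and depths were tried. Some genes that these rules name are not reported here.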

Additional observations from a re-analysis of the deposited data

How the results depend on the processing

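The immune median kept its sign under all 25 alternatives, between 1.86 and 3.54, and from 2.45 to 3.15 with each of the 9 cells left out in turn. It included the 36 of the 90 genes that reached 100 RPM in 2 cells only through the 9 cells. Its sign was thus partly built into the table, and the alternatives were not run on the 45 other genes described above. The neuronal median ran from -0.54 to 0.05 over the same alternatives, and from -0.43 to -0.08 with a cell left out. Genes past 1 log2 unit numbered 2843, or 1033 with a pseudocount of 10, and 2945 to 3174 with a cell left out. The split of 1642 higher and 1201 lower became 949 and 2126 at a limit of 5 RPM (median of all genes -0.31), 1438 and 1736 without IL03_Pool2, and 2008 and 957 without IL05_Pool5, and a pseudocount of 10 gave 668 and 365. The neuronal median was 0.05 without pool 5. The groups depend on the limit: 17 cells had at least 1 of the 5 genes at 10 RPM and 7 had at least 3, while a limit of 5 RPM gave 13 cells, 20 RPM gave 8 and thinning gave 10 of 44. Il1a differed by 5.45 to 9.45. Thinning combined with pools was added after seeing the data. No paired analysis was possible because the study has 1 condition. Depth limits the shallowest cell, where 1 read was 4.77 RPM.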
